A study of Mus musculus with 20 samples.

Results

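The Hox genes of 4 clusters were followed in mouse CIC-DUX4 sarcomas, Ewing sarcomas and the embryonic mesenchymal cells behind the model. Members were all probe sets annotated with a single gene symbol made of Hox, a cluster letter and a paralog number. These were 42 probe sets of 34 genes, out of 28898 probe sets with a single symbol. The 34 genes comprised 9 of cluster A, 10 of cluster B, 6 of cluster C and 9 of cluster D, which lie on mouse chromosomes 6, 11, 15 and 2.

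Hox genes encode homeodomain transcription factors that give cells their position along the body axis. In each cluster the genes with low paralog numbers sit at the 3′ end and are used in anterior tissue, while those with high numbers sit at the 5′ end and are used in posterior and distal tissue such as the far parts of the limb. Mesenchymal cells keep much of this code in culture, so that the set of active Hox genes marks where a mesenchymal cell came from. Polycomb proteins hold silent parts of a cluster off, Trithorax proteins keep active parts on, and retinoic acid and Cdx factors set the pattern in the embryo.

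Total RNA was hybridised to Affymetrix mouse arrays from 20 samples. The 6 CIC-DUX4 sarcomas (CDS 1 to CDS 6) were subcutaneous tumors in Balb/c nude mice, grown from embryonic mesenchymal cells (eMC) that carried the CIC-DUX4 retrovirus. The 6 Ewing sarcomas (ES 41, 46, 47, 48, 49 and 51) were also grown under the skin of nude mice, and neither their fusion gene nor their cell of origin is given in the sources used here. The 4 eMC CIC-DUX4 cultures (numbers 5 to 8) were primary mesenchymal cells taken 48 hours after transduction with a CIC-DUX4-IRES-GFP vector. The 4 eMC empty cultures (numbers 4 to 7) received the IRES-GFP vector without the fusion. The part of the embryo that gave the eMC, and any sorting of the cells, are not stated in the labels. The tumors contain host cells as well as tumor cells, and in bulk RNA fewer cells of a type and less RNA per cell cannot be told apart. Nothing in the labels says that the samples of a group came from separate cultures or animals, so a p-value covers only the spread among these arrays, which may be technical.

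The arrays differed in how much of the probe set distribution was bright, and this bears on every Hox value. In each array but eMC CIC-DUX4 6, the log2 signals fell into a dim and a bright part, and the dip between them served as the limit of detection. Above the dip lay 11.7 to 57.3% of probe sets in CDS tumors, 27.9 to 40.4% in ES tumors, 38.5 to 70.9% in 3 eMC CIC-DUX4 arrays and 11.1 to 26.9% in eMC empty arrays. CDS 5 and CDS 6 had the smallest bright parts among the tumors. Levels are log2 of the deposited signal plus an offset of 1.42, and are given beside the percentile of the probe set within its own array, which does not depend on array brightness. Where all arrays of a group lay below their dips, the log2 difference still uses those dim values and is no measured fold. A lower bound of the fold is given only where the brighter group's mean exceeded the mean of those dips. The bound is on the deposited scale, and that mean includes any arrays of the brighter group below their own dips. Because probes differ in affinity, a level of one gene was not set against that of another. Among the label checks, Etv1, a gene that CIC represses and the fusion activates, averaged 14.80 ± 0.63 in CDS tumors and 9.12 ± 1.13 in ES tumors (log2, SD, n = 6 each). Of 5 genes linked to human Ewing sarcoma, Fli1 was above the dip in 6 of 6 arrays labelled ES, Prkcb in 5, Bcl11b in 5, Nkx2-2 in 1 and Nr0b1 in 0. In CDS arrays these numbers were 6 for Fli1, 5 for Prkcb, 2 for Bcl11b and 0 for Nkx2-2 and Nr0b1. In level, Fli1 was higher in CDS tumors (13.01 ± 0.61) than in ES tumors (9.41 ± 0.73; SD, limma adjusted p = 3.02e-06). Bcl11b was lower in CDS tumors (difference -4.44, limma adjusted p = 0.0296). The summed signal of the 5 genes was 6450 to 17700 in CDS tumors and 1020 to 5190 in ES tumors, so it did not single out the ES arrays.

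The 5′ ends of clusters A and B and most of the 5′ end of cluster D were dim in all 4 groups. Hoxa13, Hoxb1, Hoxb7, Hoxb13, Hoxd11 and Hoxd12 were above the 75th percentile in none of the 20 arrays. They were above the dip in no array that has one, which leaves out eMC CIC-DUX4 6. The highest percentile of each lay between 22.7 and 34.7. Hoxd13 was above the dip in eMC CIC-DUX4 5 alone. At the 5′ end of cluster C, Hoxc13 was bright in CDS tumors. Above the dip in every array were Hoxa5, Hoxa10 and Hoxd8 in ES tumors, 15 of 34 genes in eMC CIC-DUX4, and none in CDS tumors or eMC empty. With detection in the majority of a group's arrays as the rule, the counts were 6 in CDS tumors, 6 in ES tumors, 17 in the eMC CIC-DUX4 cultures and 1 in eMC empty. The counts per array followed array brightness: CDS 5 had 0 and CDS 2 had 21 Hox genes above the dip. The map of percentiles gives each gene's rank within its own array.

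**Figure D1:**
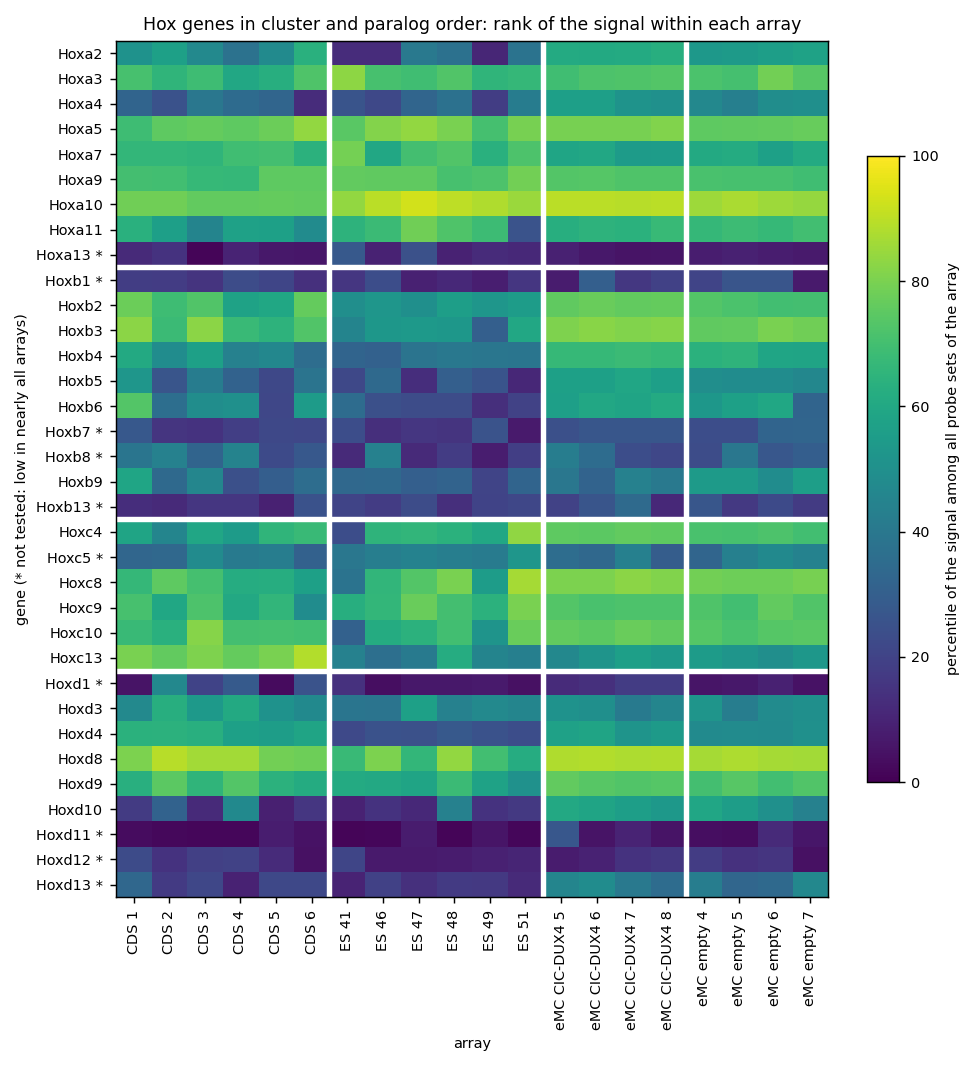
Percentile of each Hox gene's signal among all probe sets of an array (colour, 0 to 100) for 34 genes (rows, ordered by cluster and paralog number) in 20 arrays (columns, grouped as CDS tumors, ES tumors, eMC CIC-DUX4 and eMC empty); stars mark genes that were not tested. Hoxc13 lay between percentile 75.8 and 88.6 in CDS tumors and between 36.7 and 62 in ES tumors.

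The 6 genes above the dip in the majority of CDS tumors were Hoxa5, Hoxa10, Hoxb2, Hoxb3, Hoxc13 and Hoxd8, which drew on all 4 clusters. In ES tumors the 6 were Hoxa3, Hoxa5, Hoxa7, Hoxa9, Hoxa10 and Hoxd8, with 5 of them in cluster A and none in clusters B or C. In eMC CIC-DUX4 the 17 covered Hoxa2 to Hoxa11, Hoxb2 to Hoxb6, Hoxc4 to Hoxc10 and Hoxd8 to Hoxd9, without Hoxa4, Hoxa7 and Hoxc5 within those stretches. The eMC empty arrays, whose dips lay between 5.39 and 8.19, gave only Hoxd8 by this rule. Hoxa5, Hoxa10, Hoxb3, Hoxc8 and Hoxd8 lay above the 75th percentile in all 4 of them. In eMC empty 4, 5 and 6 that percentile (4.56, 4.81 and 4.21) lay below the dip (7.36, 8.19 and 6.48), so passing it there does not show detection.

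**Figure D2:**
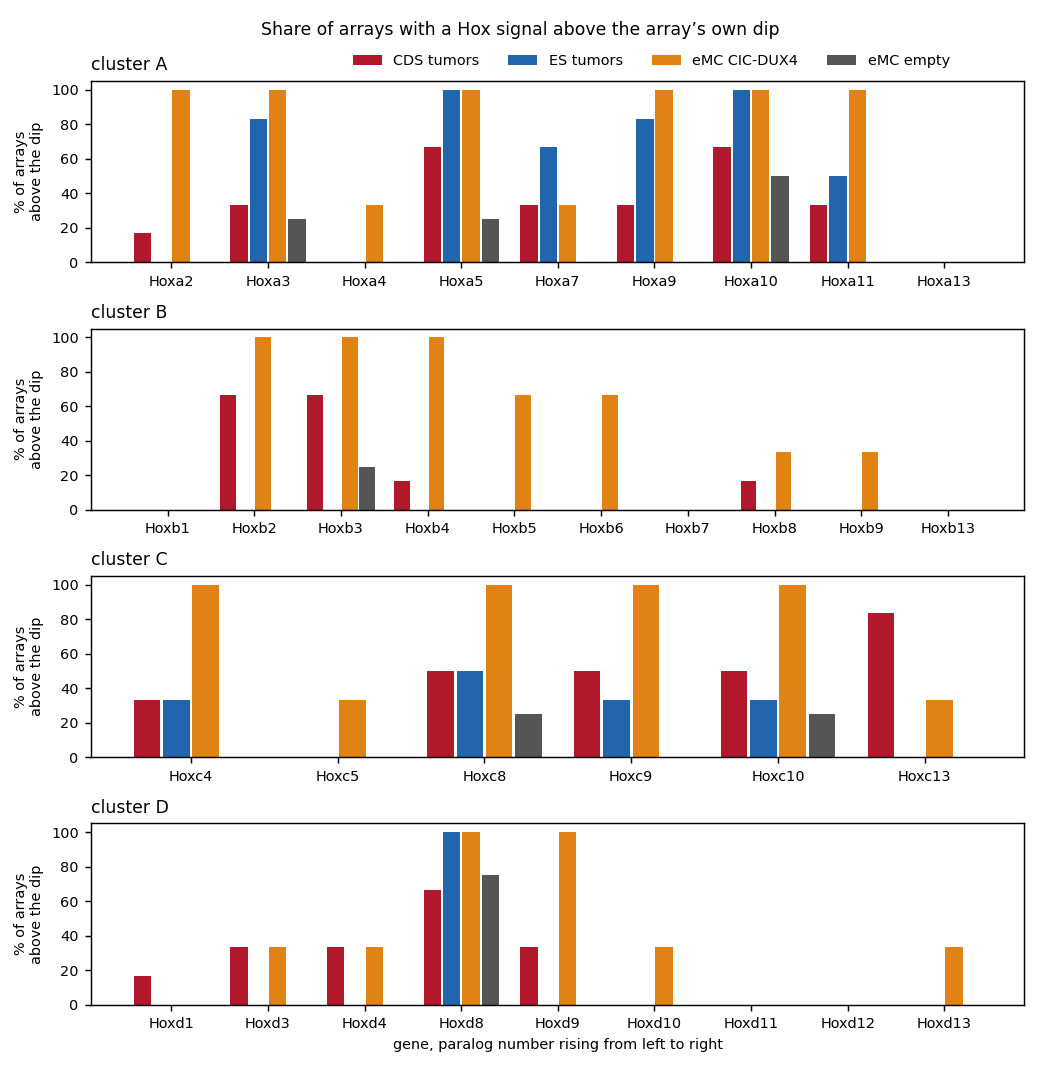
Percent of arrays in which a Hox gene's signal lay above the dip of its own array, by gene along each cluster (bars from left to right: 6 CDS tumors, 6 ES tumors, the 3 eMC CIC-DUX4 arrays that have a dip, and 4 eMC empty arrays). No bar stands over Hoxa13, Hoxb1, Hoxb7, Hoxb13, Hoxd11 or Hoxd12, and cluster B has no ES bar.

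The comparison of CDS tumors with ES tumors asked which Hox genes separate the sarcoma types. Of 34 genes, 24 exceeded the array median in at least 4 of the 20 arrays and were tested with limma among 12343 genes. CDS tumors were higher in 7 of the 24 (Hoxa2, Hoxb2, Hoxb3, Hoxb4, Hoxb6, Hoxc13 and Hoxd4), beside 11.2% of all genes called higher. They were lower in 1, Hoxa10, beside 9.58% of all genes called lower. A call needed an adjusted p under 0.05 and a log2 difference of at least 1. After quantile normalization, which gives all arrays the same distribution, 6 were higher (Hoxa2, Hoxb2, Hoxb3, Hoxc13, Hoxd4 and Hoxd8; all genes 16.9%) and Hoxa10 was lower (all genes 16.2%). Called on both scales were 5 higher, the first 5 of these (all genes 9.37%), and Hoxa10 lower (all genes 9.46%). With arrays scaled to the same median, 4 were higher and 2 lower, while the median difference of all genes moved to -0.99. The median log2 difference of the 24 genes was 0.67, beside 0.02 for all genes tested. The groups did not overlap in 6 of the 24, beside 16.5% of all genes.

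Hoxc13, a 5′ gene of cluster C known for its part in hair and nail formation, showed the largest difference among the 24. Its log2 level was 8.44, 9.0, 9.21, 9.01, 5.66 and 10.52 in CDS 1 to CDS 6, against 2.69, 2.40, 2.32, 3.19, 2.41 and 2.19 in ES 41, 46, 47, 48, 49 and 51. It was above the dip in every CDS tumor but CDS 5, whose dip lay at 8.10, and below it in all ES tumors, so the groups did not overlap. The difference was 6.11 ± 0.92 (SE; limma adjusted p = 0.000146), at least 12.1-fold, and 5.12 after quantile normalization. In cultures it was 5.80, 7.14, 3.98 and 2.50 in eMC CIC-DUX4 5 to 8 and 3.25, 3.34, 2.79 and 2.69 in eMC empty 4 to 7. The corresponding percentiles were 46.5 to 56.4 in eMC CIC-DUX4 and 49.6 to 54.8 in eMC empty, which overlapped.

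Because skin and hair cells also use Hoxc13, markers of keratinocytes were read beside it. Their summed signal was 14.1 to 82.9 in CDS tumors and 21.7 to 11600 in ES tumors, and 4 of the 5 measured markers were below the dip in all 6 CDS tumors. Krt15, a basal keratinocyte keratin, averaged 2.11 ± 0.63 in CDS tumors and 7.24 ± 4.03 in ES tumors (SD, n = 6 each). It was called lower in CDS tumors (log2 difference -5.12 ± 1.41, SE, limma adjusted p = 0.0159), but the groups overlapped. No keratinocyte marker was called higher in CDS tumors than in ES tumors. The part of skin or hair cells in the Hoxc13 values was not tested.

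In cluster B, Hoxb2 and Hoxb3, anterior genes that pattern the hindbrain and are kept in trunk mesenchyme, were higher in CDS tumors. Hoxb2 was at 7.57, 8.19, 7.35, 5.74, 4.40 and 5.18 in CDS 1 to CDS 6, against 2.58 to 2.91 in the ES tumors with a median of 2.75. Hoxb3 was at 9.22, 8.10, 9.55, 7.80, 4.67 and 4.68 in CDS 1 to CDS 6, against 2.11 to 3.60 in the ES tumors with a median of 2.80. For both genes CDS 1 to CDS 4 lay above the dip, CDS 5 and CDS 6 below it, and no CDS tumor overlapped with any ES tumor. The difference was 3.66 ± 0.77 for Hoxb2 (limma adjusted p = 0.00279; at least 2.56-fold) and 4.52 ± 0.98 for Hoxb3 (adjusted p = 0.00354; at least 4.88-fold). A second Hoxb3 probe set differed by 1.51 ± 0.62 and was not called (limma adjusted p = 0.0858).

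Hoxb4 and Hoxb6, further genes of the anterior and middle cluster, lay below the dip in all 6 ES tumors. Hoxb4 was above the dip only in CDS 2 (5.46) and averaged 3.56 ± 1.06 in CDS tumors and 2.29 ± 0.13 in ES tumors (SD, n = 6 each; difference 1.26, limma adjusted p = 0.0474). Hoxb6 was below the dip in all 12 tumors, with 2.67 to 4.34 in CDS tumors and 1.73 to 2.50 in ES tumors (difference 1.25, limma adjusted p = 0.0130). Neither was called after quantile normalization (limma adjusted p = 0.0535 and 0.0813). The other cluster B genes were below the dip in all ES tumors, and among CDS tumors Hoxb8 was above it in CDS 2 alone, at 4.37. Hoxb5 and Hoxb9 were below it in all tumors.

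In cluster A, Hoxa10, a gene of the limb and the posterior trunk, was lower in CDS tumors. It was at 7.90, 9.32, 8.21, 8.99, 5.38 and 5.02 in CDS 1 to CDS 6, against 9.66, 10.91, 11.53, 10.91, 10.56 and 10.10 in ES 41, 46, 47, 48, 49 and 51. Every ES tumor exceeded every CDS tumor, both in level and in percentile (75.8 to 78.5 in CDS tumors, 83.6 to 93.2 in ES tumors). The difference was -3.14 ± 0.73 (limma adjusted p = 0.00559), and -2.56 after quantile normalization. Hoxa10 was above the dip in all 6 ES tumors and in CDS 1 to CDS 4, and below it in CDS 5 and CDS 6. Among eMC empty arrays it was above the dip in numbers 6 and 7 only. The percentile in eMC CIC-DUX4 was 89.1 to 89.8 and in eMC empty 84.2 to 87.2, so in percentile each CDS tumor lay below every culture. In CDS 5, CDS 6 and eMC empty 4 and 5 these are ranks within the dim part of the array. In level, CDS tumors overlapped with eMC empty (6.37 to 9.61). The difference from eMC empty was -0.55 as deposited (limma adjusted p = 0.705) and -1.82 after quantile normalization (limma adjusted p = 4.39e-05).

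Hoxa2, an anterior gene that patterns the hindbrain, was at 6.63 in CDS 2 and between 2.10 and 4.14 in the other CDS tumors, against 1.71 to 2.35 in ES tumors. Only CDS 2 lay above the dip and the groups overlapped, although the test called it (difference 1.71 ± 0.57, limma adjusted p = 0.0406). Hoxa5, a gene of trunk and lung mesenchyme, was above the dip in CDS 2, 3, 4 and 6 and in all 6 ES tumors. Its mean was 7.43 ± 2.23 in CDS tumors and 8.78 ± 0.98 in ES tumors (SD, n = 6 each), which did not pass the test (limma adjusted p = 0.291). Hoxa7 and Hoxa9 were above the dip in CDS 2 and CDS 4 and in 4 and 5 of the ES tumors, and neither was called. Hoxa11, which patterns the middle segment of the limb, reached 9.20 in ES 47 and was at 1.84 in ES 51, against 2.74 to 6.59 in CDS tumors. Hoxa4 was below the dip in all tumors. Hoxa3 had 4 probe sets, and the pair that passed the filter differed in sign, by -1.57 and 0.85, with neither called.

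In cluster D, Hoxd4, an anterior gene, was at 3.50, 7.63, 3.46, 5.49, 4.22 and 3.92 in CDS 1 to CDS 6, against 1.80 to 2.24 in ES tumors with a median of 2.08. The groups did not overlap, but only CDS 2 and CDS 4 were above the dip. The CDS mean of 4.70 did not exceed the mean of the ES dips, so no fold is given. The difference was 2.64 ± 0.62 (limma adjusted p = 0.00604) and 2.03 after quantile normalization. The percentile was 55.6 to 64.4 in CDS tumors and 22.1 to 28.1 in ES tumors.

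Hoxd8 lay above the dip in the majority of arrays of each group. It was at 8.63, 10.70, 10.14, 10.33, 5.57 and 5.62 in CDS 1 to CDS 6 and at 5.69, 9.23, 7.04, 9.67, 7.06 and 5.06 in ES 41, 46, 47, 48, 49 and 51. The tumor types overlapped, and the difference of 1.21 ± 1.09 did not pass the test (limma adjusted p = 0.428). It was called after quantile normalization (2.48 ± 0.76, limma adjusted p = 0.0176), and a second probe set, whose suffix marks probes shared by several transcripts, was called on the deposited scale (3.84 ± 1.15, adjusted p = 0.0237). Hoxd3 and Hoxd9 were above the dip in CDS 2 and CDS 4 and in no ES tumor, with differences of 1.95 (limma adjusted p = 0.0628) and 2.31 (adjusted p = 0.0956). Hoxd1 reached 5.04 in CDS 2 alone, and Hoxd10 and Hoxd13 were below the dip in all tumors.

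**Figure D3:**
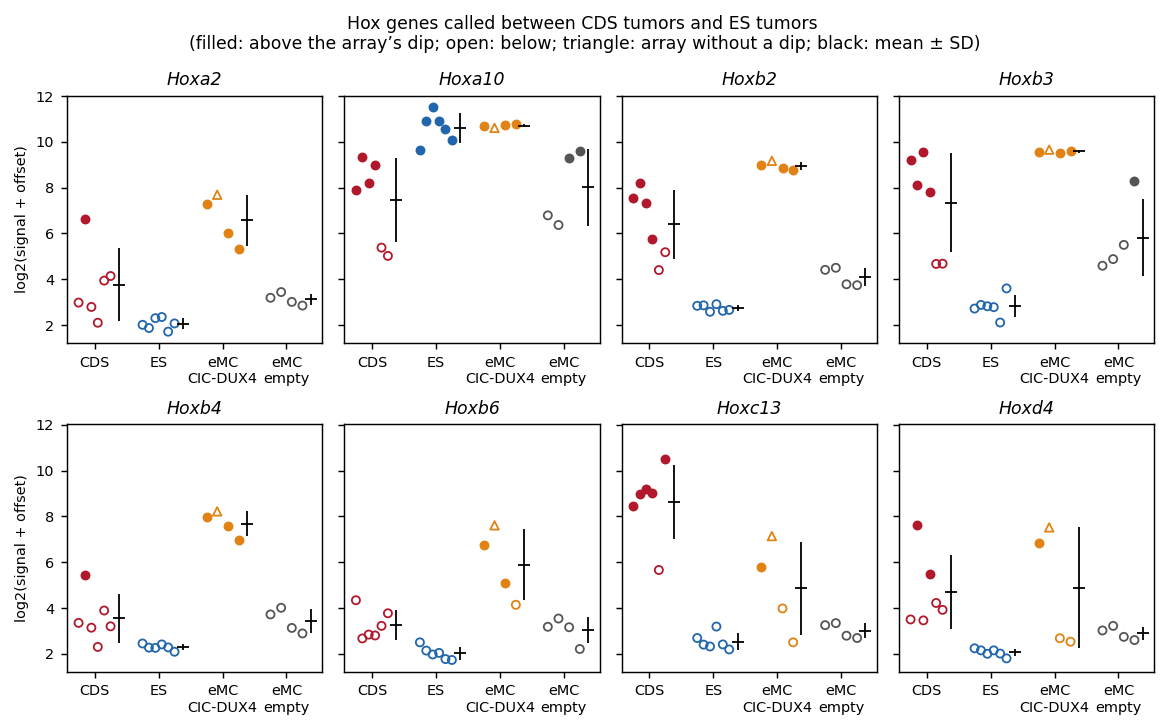
Log2(signal + offset) of the 8 Hox genes called between CDS tumors and ES tumors, 1 point per array, in 6 CDS tumors, 6 ES tumors, 4 eMC CIC-DUX4 and 4 eMC empty arrays; filled points lie above the dip of their array, open points below it, triangles mark the array without a dip, and black bars give the mean ± SD. Hoxc13 averaged 8.64 in CDS tumors and 2.54 in ES tumors, and Hoxa10 averaged 7.47 in CDS tumors and 10.61 in ES tumors.

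Genes of cluster C between Hoxc4 and Hoxc10 were bright in some tumors of both types and dim in others. Hoxc8, a thoracic gene, was at 2.56, 3.70, 8.42, 8.93, 2.72 and 10.35 in ES 41, 46, 47, 48, 49 and 51, so that ES 47, ES 48 and ES 51 were bright and the other 3 were dim. Hoxc9 was at 8.99 in ES 47 and 9.31 in ES 51, against 3.71 to 4.17 in the other 4 ES tumors. In ES 47 and ES 51, Hoxc10 was at 6.58 and 8.90, and Hoxc4 at 6.99 and 9.84. In CDS tumors Hoxc8, Hoxc9 and Hoxc10 were above the dip in CDS 2, CDS 3 and CDS 4, with Hoxc10 at 7.47, 9.41 and 8.14. None of these 4 genes was called between the tumor types (limma adjusted p = 0.665 for Hoxc4, 0.851 for Hoxc8, 0.921 for Hoxc9 and 0.333 for Hoxc10). Hoxc5 was below the dip in all tumors. The summed signal of 6 skeletal muscle markers was 26700 in ES 47, 146000 in ES 48 and 12.1 in ES 51, and the part of muscle in these differences was not tested.

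Markers of other cells also differed between the tumor types. The summed signal of 6 endothelial markers was 4410 to 8570 in CDS tumors and 298 to 3180 in ES tumors, with 2 of the 5 tested markers called higher in CDS tumors (all genes 11.2%) and 0 lower (all genes 9.58%) by limma. After quantile normalization 4 were higher (all genes 16.9%), and 1 was higher on both scales (all genes 9.37%). That of 6 skeletal muscle markers was 511 to 235000 in CDS tumors and 12.1 to 146000 in ES tumors, with none called. That of 6 macrophage markers was 2020 to 12500 in CDS tumors and 3640 to 14800 in ES tumors, and that of 3 measured fat cell markers 4880 to 29200 in CDS tumors and 4020 to 17100 in ES tumors, again with none called. The summed signal of 9 mesenchymal markers was 56600 to 229000 in CDS tumors and 26000 to 61200 in ES tumors. Of the 9 mesenchymal markers, 5 were called higher (all genes 11.2%) and 1 lower (all genes 9.58%) in CDS tumors. No endothelial or muscle marker was at 0 in a whole group. The part of these cells in the Hox differences was not tested.

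RefSeq promoters were at hand for 4 of the 8 called genes and are shown as the starts of genes called between the tumor types, although for Hoxa2 and Hoxb4 the groups overlapped. Each is the 250 bases before a transcription start on GRCm38.p6, 5′ to 3′ on the strand of the gene, and Hoxa10 has a pair of starts. Capitals mark matches to the motifs searched, on either strand.
Hoxa2, chr6:52164832-52165081, minus strand: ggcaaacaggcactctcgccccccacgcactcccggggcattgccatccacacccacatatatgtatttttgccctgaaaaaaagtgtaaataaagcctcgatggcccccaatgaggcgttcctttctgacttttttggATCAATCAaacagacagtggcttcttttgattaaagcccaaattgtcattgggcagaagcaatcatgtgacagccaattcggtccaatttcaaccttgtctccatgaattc
Hoxb4, chr11:96318017-96318266, plus strand: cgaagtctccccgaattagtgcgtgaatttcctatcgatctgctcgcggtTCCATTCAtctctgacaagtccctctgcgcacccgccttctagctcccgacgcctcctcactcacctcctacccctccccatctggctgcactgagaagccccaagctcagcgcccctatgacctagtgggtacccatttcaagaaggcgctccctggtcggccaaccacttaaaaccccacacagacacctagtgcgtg
Hoxd4, chr2:74721728-74721977, plus strand: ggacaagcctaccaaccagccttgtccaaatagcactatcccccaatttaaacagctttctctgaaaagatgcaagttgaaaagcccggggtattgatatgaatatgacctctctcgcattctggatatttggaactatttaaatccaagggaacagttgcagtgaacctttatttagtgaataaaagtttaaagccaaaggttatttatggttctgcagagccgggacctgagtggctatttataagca
Hoxa10, chr6:52234940-52235189, minus strand: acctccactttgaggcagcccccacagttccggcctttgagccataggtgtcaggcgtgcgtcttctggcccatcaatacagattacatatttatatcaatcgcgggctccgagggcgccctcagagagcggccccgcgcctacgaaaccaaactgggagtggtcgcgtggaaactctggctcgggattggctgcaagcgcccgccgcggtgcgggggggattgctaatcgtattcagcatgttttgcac
Hoxa10, chr6:52240855-52241104, minus strand: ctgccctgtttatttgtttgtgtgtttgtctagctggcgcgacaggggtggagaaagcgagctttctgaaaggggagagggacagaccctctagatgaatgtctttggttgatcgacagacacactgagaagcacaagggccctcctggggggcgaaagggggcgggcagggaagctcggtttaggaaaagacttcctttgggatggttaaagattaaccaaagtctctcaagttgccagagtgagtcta

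The motifs searched were the CIC sites TGAATGAA, TGAATGGA, TCAATGAA and TCAATGGA, the repeated ETS core GGAAGGAA, and the Hox and PBX site TGATTNAT. Hoxb4 held TGAATGGA in reverse, which 1.01% of 32841 promoter windows of the same length hold. Hoxa2 held TGATTNAT in reverse, which 2.83% hold. No motif was found in these letters of Hoxd4 or Hoxa10. Over 24 windows of 22 Hox genes the other CIC sites were absent, and GGAAGGAA was in Hoxa9 alone, against 3.12% of all windows. Hox windows held a median of 12.5 CpG, against 6 in all windows. A match is a description and not a binding site.

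CDS tumors were next set against eMC empty, the starting cells without the fusion. This comparison and those below share the 4 eMC empty arrays. CDS tumors were higher in 1 of 24 genes, Hoxc13 (all genes 14.6%), and lower in 0 (all genes 5.81%) by limma, with 3 higher and 0 lower at an unadjusted p under 0.05. Hoxc13 differed by 5.62 ± 1.05 (limma adjusted p = 0.00116), at least 3.45-fold, or by 4.73 above the median of all genes tested, which was 0.89. It was the 1 gene called higher on both scales (all genes 12.9%), and 0 were lower on both (all genes 4.24%). The groups did not overlap in 2 of the 24 genes (all genes 23.1%). After quantile normalization 3 were higher (Hoxa7, Hoxc13 and Hoxd4; all genes 17.6%) and 8 were lower (Hoxa3, Hoxa10, Hoxa11, Hoxb4, Hoxc4, Hoxc8, Hoxc9 and Hoxd10; all genes 19.2%), with 10 lower at an unadjusted p under 0.05. The median of the 24 genes was 0.58 on the deposited scale and -0.64 after quantile normalization, so its direction turned with the scale. Without CDS 5 and CDS 6, 3 genes were higher. The summed signal of 6 endothelial markers was 4410 to 8570 in CDS tumors and 25.9 to 43.3 in eMC empty, and its part in the Hox values was not tested.

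ES tumors against eMC empty gave 4 genes higher (Hoxa5, Hoxa7, Hoxa9 and Hoxa10; all genes 30.1%) and 6 lower (Hoxa2, Hoxb2, Hoxb3, Hoxb4, Hoxd9 and Hoxd10; all genes 10.9%). After quantile normalization only Hoxa7 was higher (all genes 17.3%) and 9 were lower (all genes 18.9%), the earlier 6 with Hoxb6, Hoxb9 and Hoxd8. The number lower was 2 without eMC empty 5 and 1 with a larger offset. Hoxb3 was at 2.11 to 3.60 in ES tumors, against 4.59, 4.88, 5.50 and 8.29 in eMC empty 4 to 7. Its difference was -3.00 ± 0.68 (limma adjusted p = 0.0034). The lower bound was 1.7-fold, but among eMC empty arrays Hoxb3 was above the dip in eMC empty 7 alone. Without that array the difference was -2.17. Hoxb2 was at 2.58 to 2.91 in ES tumors, against 4.41, 4.50, 3.78 and 3.74 in eMC empty 4 to 7, with percentiles of 49.5 to 56.2 in ES tumors and 69.6 to 73.3 in eMC empty. Neither gene overlapped between the groups. Over the 24 genes the groups did not overlap in 9 (all genes 35.9%). The summed signal of 6 endothelial markers was 298 to 3180 in ES tumors and 25.9 to 43.3 in eMC empty, and its part in the Hox values was not tested.

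Called on both scales in ES tumors against eMC empty were 1 gene higher (all genes 14.6%) and 6 lower (all genes 8.28%). Besides Hoxb2 and Hoxb3 these were Hoxa7, higher by 2.97 ± 1.16 (limma adjusted p = 0.0491), and Hoxa2, Hoxb4, Hoxd9 and Hoxd10, called lower. Hoxa2, Hoxb2, Hoxb4, Hoxd9 and Hoxd10 were below the dip in every array of both groups, so their differences lie within dim values and no fold is given. Hoxa7 was above the dip in 4 of 6 ES tumors and in no eMC empty array, and its groups overlapped. The median difference of all genes was 0.64, and relative to it Hoxb3 differed by -3.64 and Hoxa7 by 2.33. The median of the 24 genes was -0.59, and -0.96 after quantile normalization. Hoxa7 lost its call without any 1 of the eMC empty arrays, with differences of 2.86 to 3.11.

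eMC CIC-DUX4 against eMC empty asked what the fusion does to the same cells within 48 hours. As deposited 17 of 24 genes were higher (all genes 46.4%) and 0 lower (all genes 4.62%) by limma, with 17 and 0 at an unadjusted p under 0.05. The median difference of all genes was 2.07, and the groups did not overlap in 16 of the 24 genes (all genes 60.4%). After quantile normalization 2 were higher, Hoxa10 and Hoxb2 (all genes 8.13%), and 0 lower (all genes 4.81%) by limma, with 15 and 2 at an unadjusted p under 0.05. These 2 were also the genes called higher on both scales (all genes 7.74%), and 0 were lower on both (all genes 0.381%). With arrays scaled to the same median 0 were higher. Markers of other cells moved in this comparison too. The summed signal of 6 macrophage markers was 7400 to 8580 in eMC CIC-DUX4 and 900 to 3660 in eMC empty, with 4 of 6 called higher on both scales (all genes 7.74%). That of 3 fat cell markers was 23500 to 31500 in eMC CIC-DUX4 and 47100 to 83300 in eMC empty, and that of 9 mesenchymal markers 54600 to 74200 in eMC CIC-DUX4 and 114000 to 204000 in eMC empty. The calls did not follow these last 2 sums. Of the 3 fat cell markers, 2 were lower as deposited (all genes 4.62%) and 0 on both scales (all genes 0.381%). Of the 9 mesenchymal markers, 5 were higher (all genes 46.4%) and 2 lower (all genes 4.62%) as deposited. On both scales 2 mesenchymal markers were higher (all genes 7.74%) and 0 lower (all genes 0.381%). The part of other cells in the Hox differences was not tested. Of the 24 genes, Hoxa3, Hoxa7, Hoxa11, Hoxb9, Hoxc9 and Hoxd3 had negative differences after quantile normalization.

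Hoxa10 was at 10.71, 10.61, 10.72 and 10.80 in eMC CIC-DUX4 5 to 8, against 6.79, 6.37, 9.30 and 9.61 in eMC empty 4 to 7. The difference was 2.69 ± 0.74 (limma adjusted p = 0.0114), which lay 0.62 above that of all genes. On the quantile scale it was 1.08. The call was lost with arrays scaled to the same median (1.13, limma adjusted p = 0.632) and without the arrays of high median (2.74, limma adjusted p = 0.0755). Hoxb2 was at 9.01, 9.17, 8.84 and 8.75 in eMC CIC-DUX4 5 to 8, against 4.41, 4.50, 3.78 and 3.74 in eMC empty 4 to 7. Its difference was 4.83 ± 0.33 (limma adjusted p = 8.28e-06), 2.76 above that of all genes. No fold is given, because the median of all genes itself differed by 2.07 as deposited. On the quantile scale the Hoxb2 difference was 1.17. With arrays scaled to the same median the call was lost (3.27, limma adjusted p = 0.17). The groups did not overlap for either gene. The percentiles were 75.7 to 77.3 in eMC CIC-DUX4 and 69.6 to 73.3 in eMC empty for Hoxb2.

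**Figure D4:**
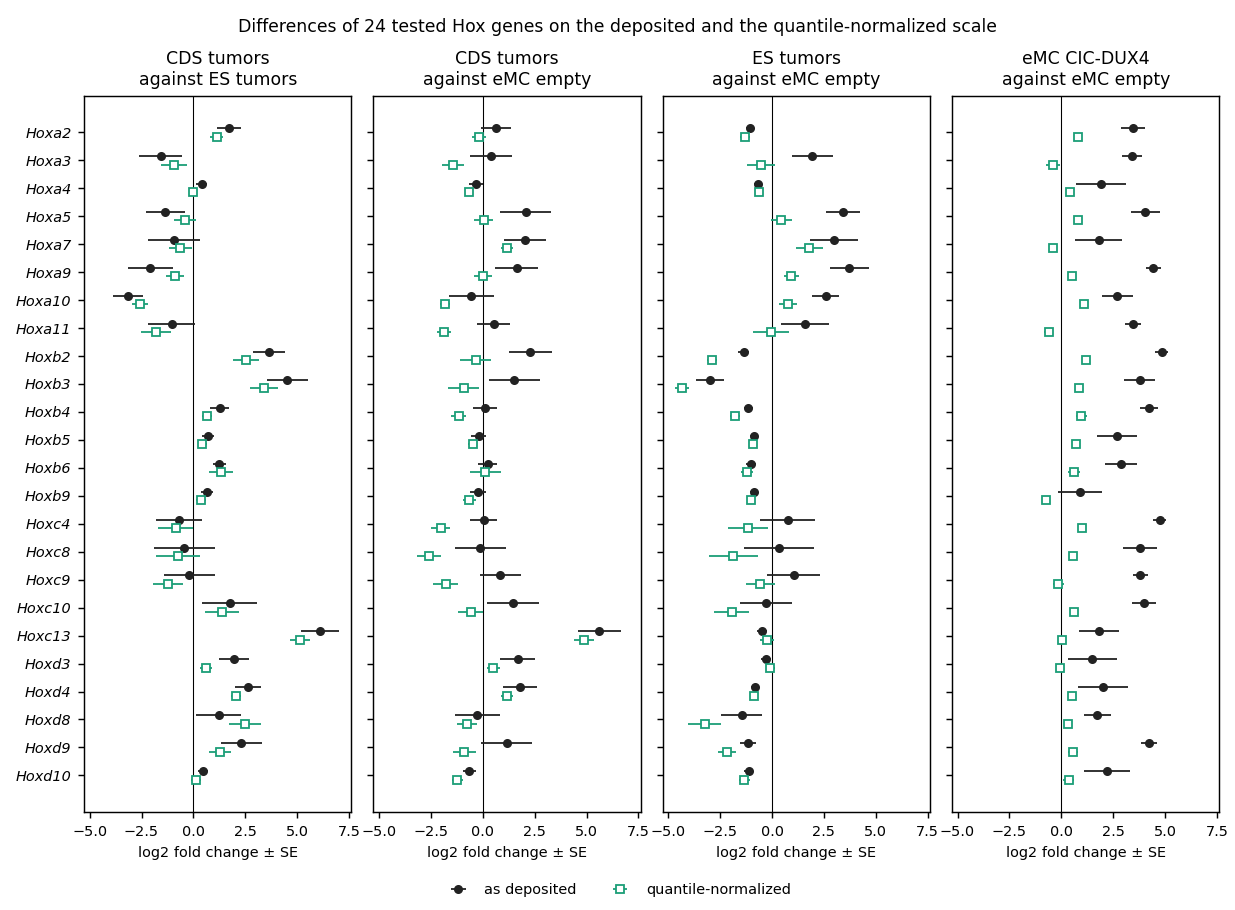
Log2 fold change ± SE of the 24 tested Hox genes (rows) in 4 comparisons (panels), as deposited (black circles) and after quantile normalization (open green squares). In eMC CIC-DUX4 against eMC empty the median over the 24 genes is 3.42 as deposited and 0.54 after quantile normalization, and Hoxc13 stands apart in both CDS panels.

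Regulators and partners of Hox genes were read from lists. The list of 10 TALE homeodomain genes held the Meis, Pbx and Pknox genes, whose proteins bind DNA with Hox proteins, and Tgif1. Of the 10, 7 were tested. CDS tumors against ES tumors called 1 higher and 1 lower, beside 11.2% of all genes higher and 9.58% lower. Meis1, a Hox partner, averaged 8.66 ± 1.45 in CDS tumors and 3.69 ± 2.70 in ES tumors (SD, n = 6 each; difference 4.98, limma adjusted p = 0.00825). Tgif1, a TALE repressor not counted here as a Hox partner, averaged 4.73 ± 1.78 in CDS tumors and 9.89 ± 0.36 in ES tumors (difference -5.16, limma adjusted p = 0.000447).

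Among 13 tested Cdx and retinoic acid genes, 4 were higher (all genes 11.2%) and 0 lower (all genes 9.58%) in CDS tumors than in ES tumors by limma. Cyp26b1, which degrades retinoic acid, averaged 12.92 ± 0.44 in CDS tumors and 3.24 ± 1.00 in ES tumors, at least 235-fold (limma adjusted p = 1.58e-08). It was also higher in CDS tumors than in eMC empty (at least 67-fold, limma adjusted p = 4.59e-09). In the eMC CIC-DUX4 cultures it was higher than in eMC empty by 5.46 as deposited (log2, limma adjusted p = 8.28e-06) and by 2.45 after quantile normalization. Cyp26b1 was called on both scales in all 3 comparisons. Aldh1a3, which makes retinoic acid, averaged 9.93 ± 1.85 in CDS tumors and 2.23 ± 0.47 in ES tumors (at least 29.5-fold, limma adjusted p = 2.79e-05).

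Of 19 tested Polycomb genes, 2 were higher (all genes 11.2%) and 4 lower (all genes 9.58%) in CDS tumors than in ES tumors. On both scales 1 was higher (all genes 9.37%) and 4 lower (all genes 9.46%). Eed, a core subunit of Polycomb repressive complex 2, differed by -1.19 ± 0.29 (limma adjusted p = 0.00746), and Pcgf5 by 4.50 ± 1.11 (adjusted p = 0.00796). Of 10 Trithorax genes and histone demethylases, 1 was higher (all genes 11.2%) and 1 lower (all genes 9.58%) in CDS tumors. The higher gene was Kmt2c, an H3K4 methyltransferase, and the lower was Ash2l, a subunit of its complex. Of 15 tested limb position factors, 5 were higher (all genes 11.2%) and 1 lower (all genes 9.58%). Tbx5, the forelimb factor, averaged 3.58 ± 1.48 in CDS tumors and 8.11 ± 2.89 in ES tumors (difference -4.53, limma adjusted p = 0.0176), and the groups overlapped. Meox1, a homeobox gene of somites, averaged 11.67 ± 0.79 in CDS tumors and 7.14 ± 0.85 in ES tumors without overlap (difference 4.53, limma adjusted p = 8.46e-06).

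Of 7 tested patterning homeobox factors and their partners, 3 were higher (all genes 11.2%) and 1 lower (all genes 9.58%) in CDS tumors than in ES tumors. After quantile normalization 1 was higher (all genes 16.9%) and 2 lower (all genes 16.2%). Eya1, a transcriptional coactivator of organ patterning, averaged 10.10 ± 1.98 in CDS tumors and 3.12 ± 0.47 in ES tumors (at least 33.2-fold, limma adjusted p = 7.52e-05). Dlx5, which is used in bone and limb bud, averaged 3.43 ± 1.13 in CDS tumors and 9.40 ± 1.25 in ES tumors (difference -5.97, limma adjusted p = 0.000197). Of 5 tested neighbours of the Hox clusters, 0 were higher (all genes 11.2%) and 1 was lower (all genes 9.58%) in CDS tumors. The lower gene was Lnpk, next to cluster D, by 2.87 ± 0.82 (limma adjusted p = 0.0195).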

How the data were processed

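Probe set signals of 20 arrays were deposited by the authors as log2 values, and MAS5 is named in the submitters' processing notes, with its settings not given in the sources used here. Linear signals were recovered, an offset of 1.42 (0.25 times the median of the array medians) was added, and log2 was taken again. Of 45141 probe sets, 104 were controls, 28898 carried 1 gene symbol, 551 several and 15588 none, by the platform annotation. Probe sets above their array's median in at least 4 arrays were kept, and each gene was represented by the kept probe set of highest mean, which left 12343 genes. Groups were compared in pairs with limma 3.58.1 (lmFit and eBayes with trend, two-sided) in R 4.3.3, with Benjamini-Hochberg adjustment over all 12343 genes. The limit of detection was the dip in the density of each array's log2 values (bandwidth 0.35). Where a gene was below it in a whole group, a lower bound of the fold was computed against the dip, if the other group's mean exceeded it. The number of arrays limits the precision. The steps were tested on simulated data.

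Hox members were named in full. A fold change and p were printed for each gene called in CDS tumors against ES tumors, and elsewhere for up to 10 genes called on the deposited and the quantile scale. From each list up to 3 genes were eligible for naming. The members and lists were chosen with earlier results of these data known. Alternatives were quantile and median scaling, other offsets, no filter, all groups in the same fit, other probe set rules, no fold minimum, arrays left out and a replicate block. Leaving out CDS 5 and CDS 6 was chosen after seeing the data. Sequences are RefSeq promoters on GRCm38.p6, matched for 22 Hox genes.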

Additional observations from a re-analysis of the deposited data

Results flagged for a closer look

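Of 96 groups of values (24 tested Hox genes in 4 groups), 9 held an array that stood far from the others of its group for the size of the group. Chance gives about 1 in 20. In ES tumors, Hoxa9 was at 4.42 in ES 48, with the nearest other tumor at 7.66 (log2). Hoxd3 was at 3.45 in ES 47, with the nearest at 2.58, and Hoxd10 was at 2.50 in ES 48, with the nearest at 1.92. These last values lay below the dip of their arrays.

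In eMC CIC-DUX4, Hoxa3 was at 8.66 in replicate 6, with the nearest at 8.30, and Hoxc8 was at 9.76 in replicate 7, with the nearest at 9.51. In eMC empty, 4 genes stood apart in replicate 7. Hoxa5 was at 7.72 there (nearest 4.85), Hoxc8 at 8.55 (nearest 5.08), Hoxc9 at 5.34 (nearest 4.36) and Hoxc10 at 6.70 (nearest 4.46). This array also had the largest bright part of its group, 26.9% of probe sets, and the part of brightness in these values was not tested.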

How the results depend on the processing

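Of 18 named gene results, none reversed in 233 values under the alternatives. In 185 the call was kept, and in 48 it was lost. In CDS tumors against ES tumors, Hoxa10, Hoxb2, Hoxb3, Hoxc13 and Hoxd4 kept their calls in all 11 alternatives, while Hoxa2 lost its call in 5, Hoxb4 in 7 and Hoxb6 in 4. The cause of the changes below was not tested.

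With arrays scaled to the same median, CDS tumors against ES tumors gave 4 higher and 2 lower, ES tumors against eMC empty 2 lower, and eMC CIC-DUX4 against eMC empty 0 higher. After quantile normalization, CDS tumors against eMC empty gave 3 higher and 8 lower, ES tumors against eMC empty 1 higher, and eMC CIC-DUX4 against eMC empty 2 higher. The larger offset gave 4 higher in CDS tumors against ES tumors and 1 lower in ES tumors against eMC empty, and the smaller offset 10 lower in the last of these. All 4 groups in the same fit gave 2 higher in CDS tumors and 1 lower in ES tumors, both against eMC empty. With no fold minimum, 11 were lower in ES tumors against eMC empty. Without CDS 5 and CDS 6, 3 were higher in CDS tumors against eMC empty.

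With 1 eMC empty array left out, ES tumors against eMC empty gave 2 to 7 lower (2 without eMC empty 5) and 3 higher each time. CDS tumors against eMC empty gave 1 higher and 0 lower each time. With 1 array of either eMC group left out, eMC CIC-DUX4 against eMC empty gave 15 to 19 higher and 0 lower. Genes above the dip in every array numbered 15 to 17 in eMC CIC-DUX4 and 0 to 1 in eMC empty (1 without eMC empty 5). Above the dip in most arrays were 6 genes in CDS tumors, 6 in ES tumors and 1 in eMC empty. Above the 75th percentile in every array were 3, 1, 6 and 5 genes in CDS tumors, ES tumors, eMC CIC-DUX4 and eMC empty. In CDS 1, CDS 5, CDS 6 and eMC empty 4, 5 and 6 that percentile lay below the dip, so passing it there does not show detection. Without CDS 5 and CDS 6, 5 genes were above the dip in every CDS tumor.

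Replicate numbers shared between eMC groups did not pair the arrays. The correlation of deviations was 0.38, -0.19 and 0.38 for numbers 5, 6 and 7 as deposited. With a replicate block, eMC CIC-DUX4 against eMC empty gave 18 higher and 0 lower, and CDS tumors against eMC empty 1 higher and 0 lower. Hoxa10 then differed by 2.25 in eMC CIC-DUX4 against eMC empty (limma adjusted p = 0.0559). ES tumors share no number with eMC empty. The low bright share of CDS 5, CDS 6 and eMC empty limits the detection of dim Hox genes there.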

Other observations

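Hoxb5os, named as an opposite-strand transcript of Hoxb5, was called lower in both tumor types than in eMC empty, although it was below the dip in all 12 tumors and in all eMC empty arrays but number 7. It was chosen after its values were seen. Its percentile was 30.4 to 60.4 in CDS tumors and 32.2 to 53.5 in ES tumors, against 73.9 to 76.5 in eMC empty. In eMC CIC-DUX4 it was 78.9 to 80.9. The limma adjusted p against eMC empty was 0.0184 for CDS tumors and 0.000325 for ES tumors, and no fold is given. The tumor types did not pass the test against each other (limma adjusted p = 0.249). Hoxb5 itself was below the dip in all 12 tumors. Hoxaas2, an antisense transcript of cluster A, was above the dip in CDS 2, in no ES tumor, in the 3 eMC CIC-DUX4 arrays that have a dip, and in no eMC empty array.

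Of 15 tested limb position factors, 3 were higher and 3 lower in CDS tumors than in eMC empty on both scales, beside 12.9% of all genes higher and 4.24% lower. In ES tumors against the same eMC empty arrays, 1 was higher and 6 lower on both scales, beside 14.6% and 8.28% of all genes. Tbx3, a limb and flank factor, averaged 12.17 ± 0.42 in CDS tumors and 4.01 ± 0.45 in eMC empty, at least 39.8-fold (limma adjusted p = 4.12e-08). In ES tumors it averaged 11.37 ± 0.34, at least 22.8-fold above eMC empty (limma adjusted p = 2.26e-07). Foxf1, a factor of lateral mesoderm, averaged 10.42 ± 0.89 in CDS tumors and 3.11 ± 0.35 in eMC empty, at least 11.8-fold (limma adjusted p = 8.96e-06). In ES tumors it averaged 10.47 ± 2.98, at least 12.2-fold above eMC empty (limma adjusted p = 0.000855). Prrx1, a homeobox factor of limb mesenchyme, differed from eMC empty by -4.55 ± 0.78 in CDS tumors (limma adjusted p = 0.000536) and by -4.46 ± 1.09 in ES tumors (limma adjusted p = 0.00527). Its relative Prrx2 averaged 2.61 ± 0.34 in ES tumors, below the dip in all 6, against 9.17 ± 1.66 in eMC empty, at least 17.4-fold lower (limma adjusted p = 5.73e-05). Crabp1, which binds retinoic acid in the cytoplasm, differed from eMC empty by -3.57 ± 0.62 in CDS tumors (limma adjusted p = 0.000599) and by -7.56 ± 1.46 in ES tumors (limma adjusted p = 0.00129). All of these calls were also made after quantile normalization.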
